A study of Mus musculus with 10 samples.

Results

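The mitochondrial genome transcripts are the 37 genes that the deposited expression table places on the mitochondrial chromosome (MT), out of 56748 genes in the table. They comprise 13 mRNAs, 2 ribosomal RNAs (rRNAs) and 22 transfer RNAs (tRNAs). The chromosome alone defined the set, with no measured value, though the set was chosen with earlier results of these data known. The 10 sequenced RNA samples came from mouse liver and formed 3 groups. The first group held 3 Akt/Nras tumours, the second 3 Akt/Nras/Foxo1AAA tumours (spelled FoxoAAA in the sample titles) and the third 4 normal livers of wild-type FVB mice. Both tumour kinds are hepatocellular carcinoma models made by hydrodynamic tail vein injection, a fast injection into the tail vein that brings DNA into hepatocytes. Foxo1AAA is a form of the transcription factor FOXO1 that the kinase AKT can no longer phosphorylate and inhibit. All 3 groups carry the genotype label WT, so the tumour genes were injected and not inherited, and the labels record a treatment only for the tumours. Age, sex, the promoters of the injected DNA and the cells left in each tumour are not described in the labels. Nothing in the labels ties a replicate to a separate mouse, so p-values are set against a spread among samples that may be only technical.

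The mitochondrial genome is a small circle that lies in many copies in each mitochondrion. A dedicated RNA polymerase, POLRMT, transcribes each strand into long precursors, and the tRNAs that punctuate them are cut out to release the mRNAs and rRNAs between them. The mRNAs encode core subunits of respiratory complexes I, III and IV and of the ATP synthase (complex V), while the nucleus encodes all of complex II, every other subunit and the whole machinery of transcription, RNA processing and translation. Normal hepatocytes are rich in mitochondria, which they need for fatty acid oxidation, the urea cycle and gluconeogenesis.

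Levels are given as FPKM, the authors' read counts divided by gene length and by a number for each library. The deposited FPKM multiplied by gene length gave whole reads, from 16158825 to 21262035 per Akt/Nras tumour, 15391726 to 20747209 per Akt/Nras/Foxo1AAA tumour and 13585055 to 17529948 per normal liver. Of these, 352569 to 1132233 reads per library fell on the mitochondrial genes. The genes in the tumours' names were higher where the labels place them, Nras by much less than the others. Foxo1 stood at 77.9 to 125 FPKM in Akt/Nras/Foxo1AAA tumours, against 5.37 to 6.05 FPKM in Akt/Nras tumours and 6.75 to 8.02 FPKM in normal livers, and Akt1 was at 720 to 963 FPKM in Akt/Nras tumours, 670 to 1198 FPKM in Akt/Nras/Foxo1AAA tumours and 20.6 to 21.6 FPKM in normal livers. Nras was at 9.62 to 11.01 FPKM in Akt/Nras tumours, 8.96 to 9.46 FPKM in Akt/Nras/Foxo1AAA tumours and 4.84 to 5.56 FPKM in normal livers. Hepatocyte markers were present in every library but lower in tumours: the 8 fixed for this work summed to 24914 to 27395 FPKM in Akt/Nras tumours, 29436 to 41214 FPKM in Akt/Nras/Foxo1AAA tumours and 69225 to 73266 FPKM in normal livers.

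The layout of the genome decides how well each transcript can be measured. A nearly identical copy of 4662 bases of it, MT:6381-11042, lies on chromosome 1 at chr1:24611535-24616197 on the minus strand (GRCm38), where GENCODE annotates 7 pseudogenes in the order of the mitochondrial genes, collinear to within 1 base. Of the 37 members, 11 lie wholly inside the copied segment, 2 lie partly in it (mt-Co1 by 31.8% of its length and mt-Nd4 by 63.6%), and 24 lie outside. The copies of mt-Co2 (Gm28661), mt-Atp6 (Gm10925), mt-Co3 (Gm28437), mt-Nd4l (Gm10222) and part of mt-Nd4 (Gm28439) matched the mitochondrial sequence without a mismatch, and that of mt-Nd3 (Gm28438) had 1 mismatch in 345 bases. The copy of the end of mt-Co1 (Gm29216) had 6 mismatches in 492 bases. An older copy on chromosome 2 is less alike, with 97.6% identity for mt-Co1 (Gm13340), 96.7% for mt-Nd2 (Gm13339) and 74.3% for mt-Co2 (Gm13341). Sequences were compared without gaps, so an inserted or deleted base would lower these figures. The first 60 bases of mt-Nd3 and 60 bases of mt-Co1 are shown with the same stretch of a nuclear copy, read from the GENCODE M21 transcripts of GRCm38, because they show how few bases tell a mitochondrial read from a nuclear one. Capitals mark the bases that differ.
mt-Nd3, MT:9459-9518, plus strand: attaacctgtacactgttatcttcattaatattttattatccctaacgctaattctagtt
Gm28438, chr1:24613060-24613119, minus strand: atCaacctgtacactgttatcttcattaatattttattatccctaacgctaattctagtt
mt-Co1, MT:6001-6060, plus strand: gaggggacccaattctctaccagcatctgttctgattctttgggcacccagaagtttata
Gm13340, chr2:22588915-22588974, minus strand: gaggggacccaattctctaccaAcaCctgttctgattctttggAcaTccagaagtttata
The only difference in the compared length of mt-Nd3 is T9461C, counted along MT, with the mitochondrial base before the position and the nuclear base after it. Among all windows of 100 bases, 97.6% of those of mt-Nd3, 98.5% of mt-Nd4l, 99.5% of mt-Co2, 99.5% of mt-Atp6 and 99.9% of mt-Co3 occurred letter for letter in a nuclear transcript. The share was 60.8% for mt-Nd4, 30.8% for mt-Co1 and 3.19% for mt-Nd2, and 0 for mt-Nd1, mt-Nd5, mt-Nd6, mt-Cytb, both rRNAs and mt-Atp8, which lies inside the segment between annotated pseudogenes. The share depends on the window. With 50 bases it was 62.2% for mt-Nd4, 51.1% for mt-Co1, 8.19% for mt-Nd2, 7.61% for mt-Nd5 and 1.04% for mt-Rnr2.

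The measured levels split along that border in all 10 libraries. The 6 mRNAs wholly inside the segment summed, in FPKM, to 1.04 to 1.43% of the other 7 in Akt/Nras tumours, 1.06 to 1.58% in Akt/Nras/Foxo1AAA tumours and 1.75 to 3.23% in normal livers. Within normal livers, mt-Co1 stood at 22387 to 35506 FPKM and its neighbour mt-Co2 at 531 to 906 FPKM, although both are cut from the same precursor. The 11 nuclear pseudogenes listed for this work together held 0.965 to 4.12 times the FPKM of the 6 inside mRNAs. That list is wider than the copies of the 6. It also holds copies of mt-Co1, mt-Nd2 and mt-Nd4, and Gm11478, which was placed on no mitochondrial gene. How reads that match both places were counted is not given in the sources used here, and their part in the low levels was not tested. Below, the 7 mRNAs outside or partly outside the segment (mt-Nd1, mt-Nd2, mt-Co1, mt-Nd4, mt-Nd5, mt-Nd6 and mt-Cytb) are called the well-measured mRNAs and are described first. The name holds less for mt-Nd4 and mt-Co1, which share 60.8% and 30.8% of their 100-base windows with nuclear transcripts (62.2% and 51.1% of 50-base windows). The SD of the 7 between replicates had a median of 9.44% of the mean in Akt/Nras tumours, 16.2% in Akt/Nras/Foxo1AAA tumours and 16.4% in normal livers, against 33.0%, 29.1% and 37.8% for the inside mRNAs.

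**Figure D1:**
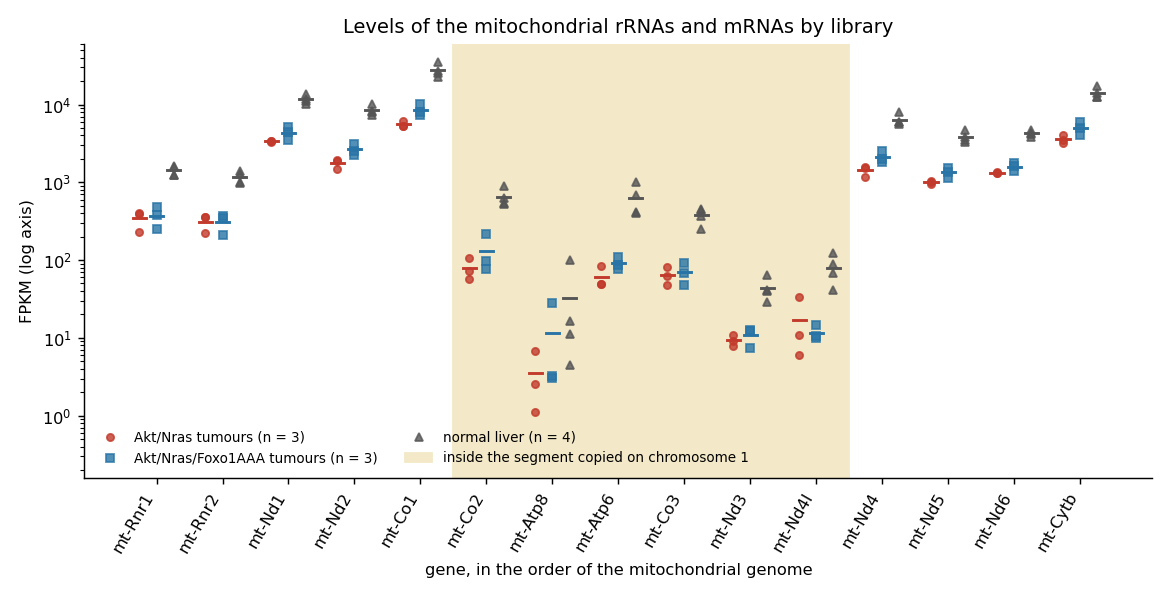
FPKM of the 2 rRNAs and 13 mRNAs in each library on a log axis, in the order of the genome, with a bar at the mean of each group (3 Akt/Nras tumours, 3 Akt/Nras/Foxo1AAA tumours and 4 normal livers). Both tumour groups lie below the normal livers for every gene but mt-Atp8, and the shaded genes, which lie inside the segment copied on chromosome 1, lie far below their neighbours.

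Every well-measured mRNA was lower in both kinds of tumour than in normal liver, with no overlap between the libraries. In Akt/Nras tumours they stood 3.22-fold (mt-Nd6) to 4.95-fold (mt-Co1) below normal liver. In Akt/Nras/Foxo1AAA tumours they stood 2.67-fold (mt-Nd1) to 3.23-fold (mt-Co1) below it. In whole tissue, fewer cells rich in mitochondria and less mitochondrial RNA per cell cannot be told apart. Two-sided tests were made with limma on log2(FPKM + 1) over the 12439 genes with at least 1 FPKM in at least 3 libraries, and a gene was called at a Benjamini-Hochberg adjusted p under 0.05. Changes are log2 differences on that scale, tumour minus normal liver, with their standard error (SE).

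Complex I, the NADH dehydrogenase that feeds electrons into the chain and pumps protons, takes 7 of its subunits from this genome. mt-Nd1 (ENSMUSG00000064341, MT:2751-3707), a membrane subunit near the ubiquinone site, had 3391, 3297 and 3431 FPKM in Akt/Nras tumours, 3470, 5133 and 4440 FPKM in Akt/Nras/Foxo1AAA tumours, and 11138, 13724, 11605 and 10023 FPKM in normal livers. The 3 Akt/Nras tumours were close to each other, at 3373 ± 68.5 FPKM (SD, n = 3), and the highest tumour of either kind, at 5133 FPKM, was far under the lowest normal liver. Its change was -1.78 (SE 0.16, limma adjusted p = 2.96e-06) for Akt/Nras tumours and -1.43 (SE 0.16, limma adjusted p = 2.18e-05) for Akt/Nras/Foxo1AAA tumours. mt-Nd2 (ENSMUSG00000064345, MT:3914-4951), a proton-pumping subunit, had 1462, 1861 and 1941 FPKM in Akt/Nras tumours, 2274, 3096 and 2556 FPKM in Akt/Nras/Foxo1AAA tumours, and 8249, 10229, 7952 and 7389 FPKM in normal livers. All 3 groups stood apart, with changes of -2.27 (SE 0.16, limma adjusted p = 6.15e-07) and -1.68 (SE 0.16, limma adjusted p = 8.71e-06) against normal liver. mt-Nd4 (MT:10167-11544), likewise a proton-pumping subunit, had 1161, 1566 and 1546 FPKM in Akt/Nras tumours, 1834, 2517 and 2012 FPKM in Akt/Nras/Foxo1AAA tumours, and 5952, 7990, 5936 and 5646 FPKM in normal livers. The groups again did not overlap, and normal liver replicate 2 was its highest library.

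mt-Nd5 (MT:11742-13565), the largest of the proton-pumping subunits, had 999, 960 and 1052 FPKM in Akt/Nras tumours, 1136, 1527 and 1360 FPKM in Akt/Nras/Foxo1AAA tumours, and 3780, 4726, 3492 and 3311 FPKM in normal livers. Its change was -1.92 in Akt/Nras tumours and -1.51 in Akt/Nras/Foxo1AAA tumours. mt-Nd6 (ENSMUSG00000064368, MT:13552-14070) is the only mRNA transcribed from the light strand, and it overlaps the end of mt-Nd5 on the other strand. It had 1338, 1307 and 1333 FPKM in Akt/Nras tumours, 1387, 1751 and 1627 FPKM in Akt/Nras/Foxo1AAA tumours, and 4324, 4734, 4221 and 3777 FPKM in normal livers. Its Akt/Nras replicates agreed most closely of all 13 mRNAs (1326 ± 16.5 FPKM, SD, n = 3), and its change, -1.68 (SE 0.12, limma adjusted p = 5.05e-07) for Akt/Nras tumours and -1.43 (SE 0.12, limma adjusted p = 2.73e-06) for Akt/Nras/Foxo1AAA tumours, was nearest to 0 of the well-measured mRNAs, level with mt-Nd1 in Akt/Nras/Foxo1AAA tumours. Whether reads were counted by strand is not given in the sources used here, so reads of mt-Nd6 and of the light-strand tRNAs cannot be told apart from those of precursors of the opposite strand. The other 2 complex I mRNAs, mt-Nd3 and mt-Nd4l, lie inside the copied segment. mt-Nd3 had 7.86, 9.05 and 10.9 FPKM in Akt/Nras tumours, 7.44, 12.5 and 12.3 FPKM in Akt/Nras/Foxo1AAA tumours, and 40.2, 63.4, 29.1 and 41.7 FPKM in normal livers. mt-Nd4l, whose end overlaps the start of mt-Nd4, had 5.94, 33.7 and 10.9 FPKM in Akt/Nras tumours, 10.02, 14.5 and 10.6 FPKM in Akt/Nras/Foxo1AAA tumours, and 88.9, 67.6, 40.8 and 122 FPKM in normal livers. Both fell too, so that 7 of 7 complex I mRNAs were called lower in either tumour kind, with medians of -2.08 in Akt/Nras and -1.59 in Akt/Nras/Foxo1AAA tumours.

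Complex III passes electrons from ubiquinol to cytochrome c, and its cytochrome b is the mitochondrial product mt-Cytb (ENSMUSG00000064370, MT:14145-15288). It had 3243, 3539 and 4056 FPKM in Akt/Nras tumours, 4065, 5877 and 5002 FPKM in Akt/Nras/Foxo1AAA tumours, and 13964, 17367, 12524 and 12335 FPKM in normal livers. The change was -1.95 (SE 0.17, limma adjusted p = 2.83e-06) for Akt/Nras tumours and -1.50 (SE 0.17, limma adjusted p = 2.9e-05) for Akt/Nras/Foxo1AAA tumours. Complex IV, cytochrome c oxidase, reduces oxygen to water, and mt-Co1 (ENSMUSG00000064351, MT:5328-6872) encodes its catalytic core. mt-Co1, which lies partly in the copied segment, was the most abundant mitochondrial transcript in all 10 libraries and fell furthest of the well-measured mRNAs. It had 5232, 5263 and 6155 FPKM in Akt/Nras tumours, 7420, 10052 and 8031 FPKM in Akt/Nras/Foxo1AAA tumours, and 25065, 35506, 27019 and 22387 FPKM in normal livers, with changes of -2.29 (SE 0.18, limma adjusted p = 1.29e-06) and -1.68 (SE 0.18, limma adjusted p = 1.87e-05).

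mt-Co2, which carries the copper centre that receives electrons from cytochrome c, lies inside the segment and had 56.9, 73.1 and 106 FPKM in Akt/Nras tumours, 75.8, 216 and 98.5 FPKM in Akt/Nras/Foxo1AAA tumours, and 632, 906, 531 and 548 FPKM in normal livers. Tumours and normal livers did not overlap, and Akt/Nras/Foxo1AAA replicate 2 was well above the other tumours. mt-Co3, also inside the segment, had 48.2, 80.8 and 63.2 FPKM in Akt/Nras tumours, 47.8, 91.4 and 68.6 FPKM in Akt/Nras/Foxo1AAA tumours, and 441, 459, 249 and 365 FPKM in normal livers. Its 2 tumour groups lay at the same levels, both far below normal liver. Of the ATP synthase, the mitochondrial genome encodes the proton channel subunit ATP6 (mt-Atp6) and the small ATP8 (mt-Atp8), whose reading frames overlap. mt-Atp6 had 48.7, 49.1 and 84.8 FPKM in Akt/Nras tumours, 85.2, 111 and 75.7 FPKM in Akt/Nras/Foxo1AAA tumours, and 402, 677, 415 and 1017 FPKM in normal livers. Its change in Akt/Nras tumours, -3.29 (SE 0.32, limma adjusted p = 6.23e-06), was the furthest from 0 of the 31 tested members. mt-Atp8 had 6.86, 1.10 and 2.53 FPKM in Akt/Nras tumours, 3.24, 28.2 and 3.09 FPKM in Akt/Nras/Foxo1AAA tumours, and 99.2, 16.4, 11.3 and 4.45 FPKM in normal livers. This was the only mRNA that did not pass the test, with changes of -2.25 (SE 0.97, limma adjusted p = 0.0602) and -1.21 (SE 0.97, limma adjusted p = 0.295), and its groups overlapped. It rested on 4 to 237 reads per library. The listed nuclear pseudogenes moved the same way: 10 of 11 were called lower in Akt/Nras tumours (median -2.17) and 11 of 11 in Akt/Nras/Foxo1AAA tumours (median -1.44). Of all tested genes 37.9% and 36.5% were. With every library scaled to the same FPKM total, 10 pseudogenes were called lower and 1 higher in Akt/Nras tumours (median -1.21). In Akt/Nras/Foxo1AAA tumours 7 were then lower (median -0.73). Most share sequence with mitochondrial genes, so they are no separate measure.

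The 2 rRNAs, which form the small (mt-Rnr1, 12S) and large (mt-Rnr2, 16S) subunits of the mitochondrial ribosome, fell as well. mt-Rnr1 (MT:70-1024) had 232, 405 and 392 FPKM in Akt/Nras tumours, 251, 487 and 380 FPKM in Akt/Nras/Foxo1AAA tumours, and 1227, 1629, 1588 and 1226 FPKM in normal livers. mt-Rnr2 (MT:1094-2675) had 221, 360 and 355 FPKM in Akt/Nras tumours, 212, 368 and 352 FPKM in Akt/Nras/Foxo1AAA tumours, and 1016, 1416, 1286 and 987 FPKM in normal livers. Replicate 1 was the lowest library of either tumour kind for both genes, and no tumour reached the normal livers. The change of mt-Rnr1 was -2.07 (SE 0.25, limma adjusted p = 3.01e-05) for Akt/Nras and -1.96 (SE 0.25, limma adjusted p = 6.09e-05) for Akt/Nras/Foxo1AAA tumours, and that of mt-Rnr2 was -1.93 and -1.94. The labels describe the libraries as made by polyA capture or rRNA removal without saying which, and either step bears on rRNA levels. Of the 6 nuclear RNAs without a poly(A) tail in a list made for this check, 4 were at 0 in all libraries, and the other 2 summed to 24.3 to 28.8 FPKM in Akt/Nras tumours, 11.5 to 14.2 FPKM in Akt/Nras/Foxo1AAA tumours and 19.1 to 48.9 FPKM in normal livers, nearly all from Rn7sk. The 7 replication-dependent histone genes, none at 0 throughout, summed to 41.1 to 49.0 FPKM, 68.4 to 77.1 FPKM and 20.1 to 25.6 FPKM in the same order of groups, nearly all from H1f2.

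The tRNAs gave few reads, 1251 to 3612 per library in all. Of the 22, 16 passed the filter and 6 did not: mt-Tf and mt-Td had no read in any library, which by counting error alone allows up to 3 reads in each, and mt-Tv, mt-Tk, mt-Tg and mt-Tt had between 1 and 6 reads over all 10. All 8 tRNAs transcribed from the light strand were tested and 8 of the 14 from the heavy strand. Light-strand tRNAs held 74.1 to 83.2% of the tRNA reads. The most abundant was mt-Tp (tRNA-Pro), with 500, 381 and 487 FPKM in Akt/Nras tumours, 519, 704 and 652 FPKM in Akt/Nras/Foxo1AAA tumours, and 2180, 3083, 3371 and 2270 FPKM in normal livers. It fell by 2.56 in Akt/Nras tumours (SE 0.18, limma adjusted p = 6.19e-07) and by 2.11 in Akt/Nras/Foxo1AAA tumours (SE 0.18, limma adjusted p = 4.17e-06), further than any well-measured mRNA. Sequences are given for the 5 tRNAs on which the later comparisons turn, as the tRNA reads 5′ to 3′ in DNA letters, from the GENCODE M21 transcripts of GRCm38, with the anticodon in capitals.
mt-Tq (glutamine), MT:3772-3842, minus strand: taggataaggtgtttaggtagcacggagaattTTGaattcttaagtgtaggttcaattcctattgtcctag
mt-Tn (asparagine), MT:5089-5159, minus strand: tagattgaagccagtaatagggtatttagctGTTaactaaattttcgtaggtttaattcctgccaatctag
mt-Tc (cysteine), MT:5192-5257, minus strand: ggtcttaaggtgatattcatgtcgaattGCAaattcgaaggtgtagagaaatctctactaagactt
mt-Ty (tyrosine), MT:5260-5326, minus strand: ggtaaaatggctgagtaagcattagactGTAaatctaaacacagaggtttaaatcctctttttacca
mt-Tl1 (leucine, UUR codons), MT:2676-2750, plus strand: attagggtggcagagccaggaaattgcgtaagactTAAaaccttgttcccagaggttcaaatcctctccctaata
The first 4 are transcribed from the light strand, and mt-Tn, mt-Tc and mt-Ty stand in the cluster of 5 tRNA genes between mt-Nd2 and mt-Co1, where the replication origin of the light strand lies between mt-Tn and mt-Tc. mt-Tl1 follows mt-Rnr2, and transcription from the rRNA promoter is known to terminate within it.

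mt-Tc had 256, 159 and 240 FPKM in Akt/Nras tumours, 119, 165 and 127 FPKM in Akt/Nras/Foxo1AAA tumours, and 411, 546, 610 and 401 FPKM in normal livers. mt-Tn had 70.2, 72.9 and 78.0 FPKM in Akt/Nras tumours, 28.7, 55.2 and 64.1 FPKM in Akt/Nras/Foxo1AAA tumours, and 152, 190, 188 and 139 FPKM in normal livers. For both tRNAs the mean of the Akt/Nras/Foxo1AAA tumours was the lowest of the 3 groups, whereas for the well-measured mRNAs that of the Akt/Nras tumours was. Against normal liver mt-Tc changed by -1.18 in Akt/Nras and -1.82 in Akt/Nras/Foxo1AAA tumours, and mt-Tn by -1.16 and -1.81, all with a limma adjusted p of 0.00112 or less. With every library scaled to the same FPKM total, the changes in Akt/Nras tumours came to -0.21 for mt-Tc and -0.20 for mt-Tn and lost their calls (limma adjusted p = 0.318 and 0.455), while those in Akt/Nras/Foxo1AAA tumours, -1.10 and -1.09, stayed called. mt-Tl1 had 25.9, 36.0 and 29.4 FPKM in Akt/Nras tumours, 30.8, 40.3 and 38.3 FPKM in Akt/Nras/Foxo1AAA tumours, and 55.8, 74.3, 47.4 and 45.4 FPKM in normal livers. Its changes of -0.84 (SE 0.18, limma adjusted p = 0.00157) and -0.58 (SE 0.18, limma adjusted p = 0.0147) were nearest to 0 of the called members. They turned to 0.11 and 0.13 when every library was scaled to the same FPKM total, and without Akt/Nras/Foxo1AAA replicate 1 the change in Akt/Nras/Foxo1AAA tumours lost its call (limma adjusted p = 0.0631).

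The remaining called tRNAs moved the same way. mt-Ty, mt-Te, mt-Tq, mt-Tw, mt-Ts2, mt-Tl2, mt-Th and mt-Tm were called lower in both tumour kinds, mt-Ti likewise, mt-Ta only in the Akt/Nras tumours (limma adjusted p = 0.0451, against 0.11 in Akt/Nras/Foxo1AAA tumours) and mt-Ts1 only in the Akt/Nras/Foxo1AAA tumours (limma adjusted p = 0.0471, against 0.0769). Neither was called between the tumour kinds, and mt-Ta had 44 reads and mt-Ts1 11 reads over all libraries. The calls of mt-Ta, of mt-Ts1 and of mt-Ti in Akt/Nras/Foxo1AAA tumours did not hold without each of several single libraries, with limma adjusted p of up to 0.174 (without Akt/Nras replicate 2), 0.135 (without Akt/Nras/Foxo1AAA replicate 2) and 0.119 (without Akt/Nras/Foxo1AAA replicate 3). mt-Tr, with 11 reads over all libraries, passed in neither comparison. At equal FPKM totals mt-Tw was called in neither tumour kind (-0.44, limma adjusted p = 0.133, and -0.52, limma adjusted p = 0.093), mt-Th (limma adjusted p = 0.0533) and mt-Ta (0.138) not in Akt/Nras tumours, and mt-Te (0.054), mt-Ti (0.127) and mt-Ts1 (0.0815) not in Akt/Nras/Foxo1AAA tumours.

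**Figure D2:**
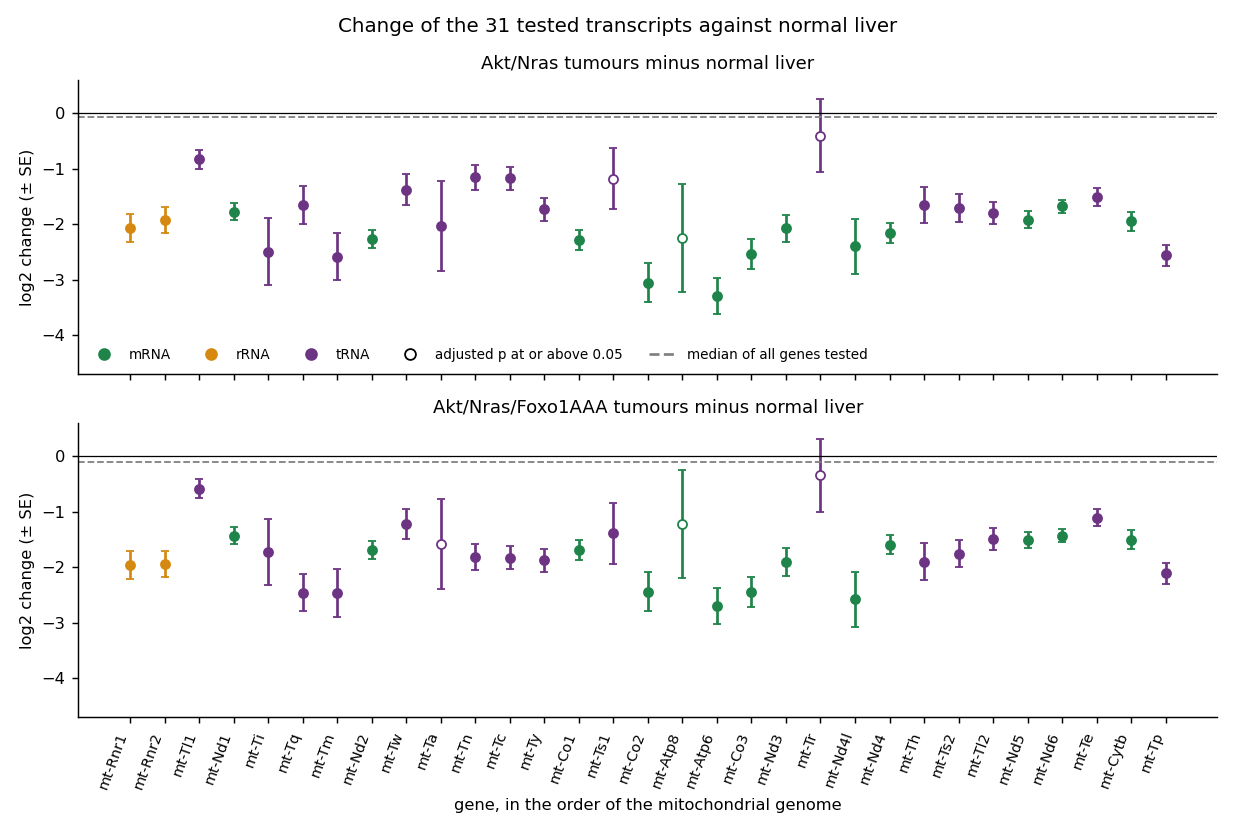
Log2 change (points) with its SE (bars) of the 31 tested transcripts in Akt/Nras tumours (upper panel) and Akt/Nras/Foxo1AAA tumours (lower panel) against normal liver, in the order of the genome, coloured by kind of RNA. All 31 points lie below 0, 28 of them called in each panel (filled), and the dashed line at the median of all genes tested stands at -0.07 and -0.09.

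Counted together, 28 of 31 tested members were called lower in Akt/Nras tumours and 28 of 31 in Akt/Nras/Foxo1AAA tumours, and 0 higher in either by limma, by an unadjusted p under 0.05 or by voom. In the background of all tested genes, 37.9% were called lower and 31.1% higher in Akt/Nras tumours, and 36.5% lower and 26.8% higher in Akt/Nras/Foxo1AAA tumours. The members' median change was -1.93 in Akt/Nras tumours and -1.72 in Akt/Nras/Foxo1AAA tumours, against -0.07 and -0.09 over all genes. The libraries of 27 members did not overlap between Akt/Nras tumours and normal liver, all lower (37.4% of all genes), nor did those of 26 members between Akt/Nras/Foxo1AAA tumours and normal liver (37.5%). The comparisons share the 4 normal livers. By kind, 12 of 13 mRNAs, 2 of 2 rRNAs and 14 of 16 tested tRNAs were called lower in each.

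These counts depend on how libraries are put on a common scale. The number by which the authors divided each library was 1.0 to 1.06 of its summed reads in Akt/Nras tumours, 0.875 to 0.928 in Akt/Nras/Foxo1AAA tumours and 0.629 to 0.668 in normal livers. With every library scaled to the same FPKM total, the median of all genes moved to 0.70 in Akt/Nras and 0.47 in Akt/Nras/Foxo1AAA tumours, and the calls over all genes turned to 8609 higher and 1713 lower, from 3871 and 4716, in Akt/Nras tumours and to 7584 higher and 1681 lower, from 3330 and 4544, in Akt/Nras/Foxo1AAA tumours. The members still fell: 22 were called lower in Akt/Nras and 23 in Akt/Nras/Foxo1AAA tumours, and 0 higher. The 7 well-measured mRNAs were called lower at equal totals, equal nuclear totals, equal reads, totals without the 50 most abundant genes and median-of-ratios scaling, with changes of -1.32 to -0.71 in Akt/Nras and -0.96 to -0.70 in Akt/Nras/Foxo1AAA tumours at equal totals.

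A share of reads does not depend on the number by which each library was divided, but it does depend on the reads of all other genes. Mitochondrial genes took 2.18, 2.45 and 2.55% of the reads in Akt/Nras tumours, 2.44, 3.48 and 3.00% in Akt/Nras/Foxo1AAA tumours, and 6.37, 7.93, 6.26 and 5.59% in normal livers. The lowest normal liver was above every tumour. The exact two-sided permutation p was 0.0571 for either tumour kind, the smallest that 3 samples against 4 can give (0.0857 after adjustment over 3 comparisons). The well-measured mRNAs made up most of it, with 2.10 to 2.42% of the reads in Akt/Nras tumours, 2.37 to 3.35% in Akt/Nras/Foxo1AAA tumours and 5.30 to 7.58% in normal livers. The inside mRNAs took 0.0118 to 0.0188%, 0.0134 to 0.0276% and 0.0559 to 0.0934% of the reads in Akt/Nras tumours, Akt/Nras/Foxo1AAA tumours and normal livers, and the nuclear pseudogenes 0.0312 to 0.0516%, 0.0352 to 0.0698% and 0.0828 to 0.171%. Adding the pseudogene reads to the mitochondrial ones gave mean shares of 2.43%, 3.03% and 6.66%, beside 2.39%, 2.97% and 6.54% without them.

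Between the tumour kinds, the well-measured mRNAs were higher in all 3 Akt/Nras/Foxo1AAA tumours than in all 3 Akt/Nras tumours, yet none of the 31 members passed the test. Limma called 0, with 9 at an unadjusted p under 0.05 (7 higher and 2 lower), while voom on the recovered reads called 3 higher (mt-Nd2, mt-Co1 and mt-Nd4) and 0 lower. In the background, 7.93% of all genes were called higher and 4.13% lower (986 and 514 genes, against 656 and 3234 at equal FPKM totals). The changes of the well-measured mRNAs, Akt/Nras/Foxo1AAA minus Akt/Nras, lay between 0.25 and 0.61, where the median of all genes was -0.01. Those of mt-Nd2 were 0.59 (95% interval 0.20 to 0.98, limma adjusted p = 0.0541), of mt-Co1 0.61 (0.17 to 1.04, limma adjusted p = 0.0704) and of mt-Nd4 0.57 (0.16 to 0.98, limma adjusted p = 0.0703). mt-Cytb differed by 0.45 (0.04 to 0.86, limma adjusted p = 0.136), mt-Nd5 by 0.41 (0.06 to 0.76, limma adjusted p = 0.116), mt-Nd1 by 0.35 (-0.03 to 0.72, limma adjusted p = 0.205) and mt-Nd6 by 0.25 (-0.03 to 0.53, limma adjusted p = 0.212). Together with mt-Tp they were the 8 members whose libraries lay higher without overlap, where 16.4% of all genes did so. mt-Tq and mt-Tn lay lower without overlap (15.5% of all genes did). Equal FPKM totals brought the 7 differences to between 0.00 and 0.36, and called mt-Tq, mt-Tn and mt-Tc lower.

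The rRNAs did not pass either, with differences nearer to 0. mt-Rnr1 differed by 0.11 (95% interval -0.49 to 0.71), an interval that holds the differences of all 7 well-measured mRNAs. mt-Rnr2 differed by -0.01 (-0.58 to 0.55), an interval that ends just below the differences of mt-Nd2, mt-Co1 and mt-Nd4 but overlaps their intervals. Among the inside mRNAs, mt-Co2 differed by 0.62, mt-Atp6 by 0.60, mt-Nd3 by 0.17, mt-Co3 by 0.09 and mt-Nd4l by -0.18, and mt-Atp8 by 1.04 with an SE of 1.04. The share of reads was 2.97% ± 0.518 (SD, n = 3) in Akt/Nras/Foxo1AAA tumours and 2.39% ± 0.188 (SD, n = 3) in Akt/Nras tumours, with an exact two-sided permutation p of 0.3, where 0.1 is the smallest that 3 against 3 can give. Akt/Nras/Foxo1AAA replicate 1, at 2.44%, lay within the range of the Akt/Nras tumours. Hepatocyte markers moved the same way, with 5 of 8 called higher in Akt/Nras/Foxo1AAA than in Akt/Nras tumours (3 at equal FPKM totals). Their part in the mitochondrial values was not tested.

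**Figure D3:**
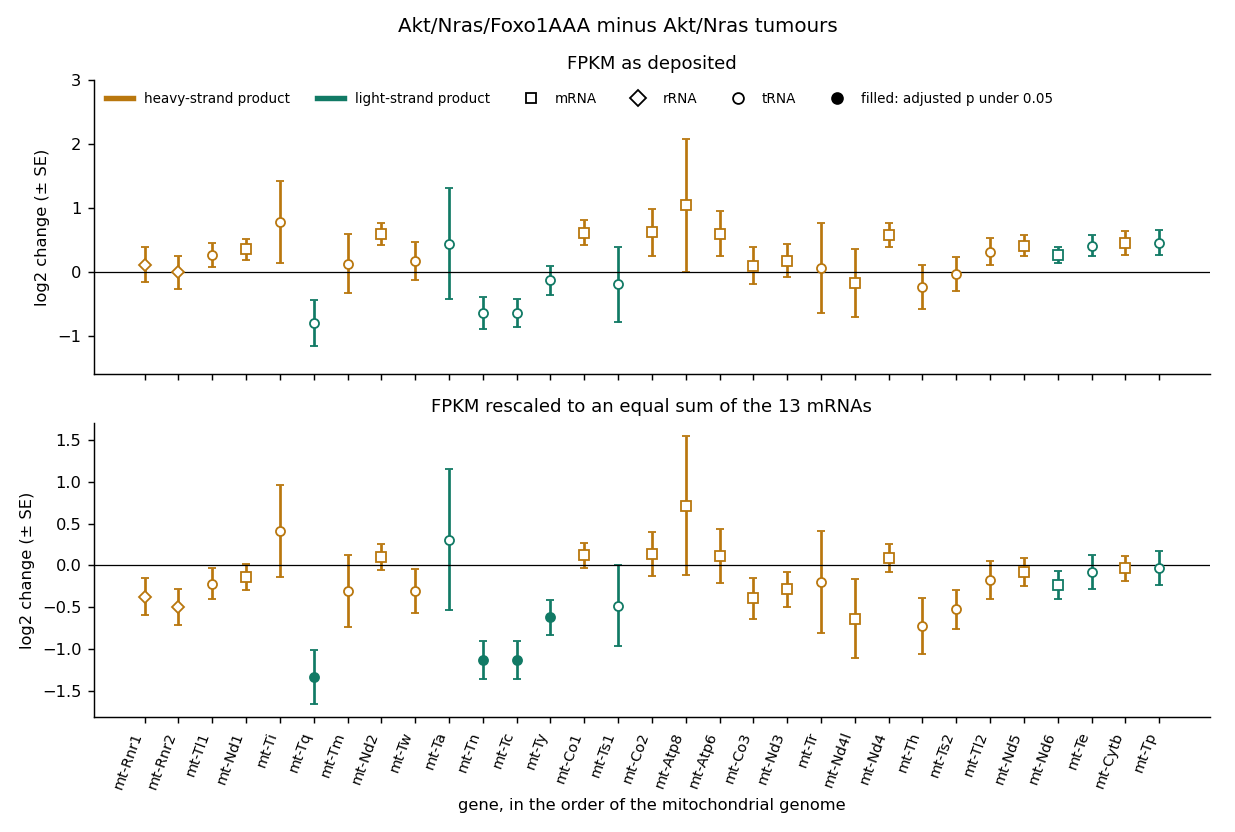
Log2 change (points) with its SE (bars), Akt/Nras/Foxo1AAA minus Akt/Nras tumours, of the 31 tested transcripts in genome order, as deposited (upper panel) and after each library was scaled to an equal sum of the 13 mitochondrial mRNAs (lower panel). No point is filled in the upper panel, and in the lower panel the 4 filled points are the light-strand tRNAs mt-Tq, mt-Tn, mt-Tc and mt-Ty.

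To compare the makeup of the mitochondrial RNA apart from its amount, each level was set against the summed FPKM of the 13 mRNAs. By this measure the mRNAs kept nearly the same order in all groups. mt-Co1 held 30.8, 29.2 and 31.1% of the sum in Akt/Nras tumours, 34.0, 33.0 and 31.7% in Akt/Nras/Foxo1AAA tumours, and 33.8, 36.8, 36.5 and 33.4% in normal livers. mt-Nd1 held 19.9, 18.3 and 17.3%, 15.9, 16.9 and 17.6%, and 15.0, 14.2, 15.7 and 15.0% in the same order of groups. In Akt/Nras tumours mt-Co1 was below, and mt-Nd1 above, every normal liver. All 3 Akt/Nras tumours were also below the Akt/Nras/Foxo1AAA tumours for mt-Co1, whereas the tumour kinds overlapped for mt-Nd1. mt-Cytb held 19.1 to 20.5% in Akt/Nras tumours, 18.6 to 19.8% in Akt/Nras/Foxo1AAA tumours and 16.9 to 18.8% in normal livers.

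Limma was run again on FPKM scaled so that this sum was equal in all libraries. On that scale 86.9% of all genes were called higher and 4.93% lower in Akt/Nras tumours, and 83.7% and 4.16% in Akt/Nras/Foxo1AAA tumours, since the sum itself fell, so a change here is relative to the mitochondrial mRNAs alone. Of the well-measured mRNAs only mt-Nd6 was called, higher in Akt/Nras tumours (0.40, SE 0.16, limma adjusted p = 0.0246), and without Akt/Nras replicate 1 or 2 it was not (0.0941 and 0.061). Among the inside mRNAs, mt-Atp6 (-1.22) and mt-Co2 (-0.98) were called lower in Akt/Nras tumours, and mt-Atp6 (-1.11), mt-Nd4l (-1.05), mt-Co3 (-0.86) and mt-Co2 (-0.85) in Akt/Nras/Foxo1AAA tumours. mt-Nd4l lost its call without any of 5 single libraries, with a limma adjusted p of up to 0.114 without normal liver replicate 4. Each of these 4 genes shares nearly all its sequence with the nuclear copies.

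The tRNAs differed more. mt-Tl1 stood at 0.153, 0.200 and 0.149% of the mRNA sum in Akt/Nras tumours, 0.141, 0.132 and 0.151% in Akt/Nras/Foxo1AAA tumours, and 0.0752, 0.0770, 0.0640 and 0.0678% in normal livers. Both tumour kinds were above normal liver without overlap, by 1.20 (SE 0.17, limma adjusted p = 6.08e-06) and 0.98 (SE 0.17, limma adjusted p = 7.32e-05), so it fell less than the mRNAs. It rested on 30 to 54 reads per library. The median of all genes on this scale was 1.61 in Akt/Nras and 1.15 in Akt/Nras/Foxo1AAA tumours. mt-Te (tRNA-Glu) was also called higher in both, by 0.56 (limma adjusted p = 0.0121) and 0.48 (limma adjusted p = 0.0285), and mt-Tp lower in both, by -0.48 (limma adjusted p = 0.0251) and -0.52 (limma adjusted p = 0.0183). These calls did not hold without each of several libraries: for mt-Te the limma adjusted p reached 0.0617 without Akt/Nras replicate 2 and 0.174 without Akt/Nras/Foxo1AAA replicate 3, and for mt-Tp 0.128 without Akt/Nras replicate 2 and 0.0826 without normal liver replicate 3. In Akt/Nras tumours alone, mt-Tn (0.90, limma adjusted p = 0.000701), mt-Tc (0.90, limma adjusted p = 0.000751) and mt-Tw (0.63, limma adjusted p = 0.0229, and 0.0807 without normal liver replicate 4) were called higher. In Akt/Nras/Foxo1AAA tumours mt-Tq (-1.20, limma adjusted p = 0.00156) and mt-Tm (-1.09, limma adjusted p = 0.019, and 0.185 without replicate 3 of that group) were called lower.

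Relative to the mRNA sum, the only members called between the tumour kinds were among these tRNAs. As deposited none of them was called. There mt-Tn differed by -0.65 (limma adjusted p = 0.117) and mt-Tc by -0.65 (limma adjusted p = 0.0833). mt-Tq differed by -0.80 (limma adjusted p = 0.174) and mt-Ty by -0.14 (limma adjusted p = 0.729). mt-Tc stood at 0.547, 0.543 and 0.503% of the mRNA sum in Akt/Nras/Foxo1AAA tumours and 1.51, 0.879 and 1.21% in Akt/Nras tumours, and at 0.555, 0.565, 0.823 and 0.598% in normal livers. mt-Tn stood at 0.132, 0.181 and 0.253% in Akt/Nras/Foxo1AAA tumours and 0.413, 0.404 and 0.394% in Akt/Nras tumours, and at 0.204, 0.197, 0.255 and 0.208% in normal livers. For both, the Akt/Nras tumours stood apart above the other 2 groups, which overlapped for mt-Tn. The difference between Akt/Nras/Foxo1AAA and Akt/Nras tumours was -1.14 for mt-Tn (SE 0.23, limma adjusted p = 0.00314) and -1.14 for mt-Tc (SE 0.23, limma adjusted p = 0.00318), and either call held without any single library (limma adjusted p of at most 0.0182 and 0.0178). mt-Tq differed by -1.34 (SE 0.32, limma adjusted p = 0.00799), on no more than 1 to 3 reads in each Akt/Nras/Foxo1AAA tumour and 3 to 6 in each Akt/Nras tumour. mt-Ty differed by -0.62 (SE 0.21, limma adjusted p = 0.0286), and by this measure its libraries did not overlap, with 0.143 to 0.181% in Akt/Nras/Foxo1AAA tumours and 0.198 to 0.294% in Akt/Nras tumours. That call was lost without replicate 2 or 3 of the Akt/Nras tumours (limma adjusted p = 0.0886 and 0.102) and without Akt/Nras/Foxo1AAA replicate 2 or 3 (0.104 and 0.0625).

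These 4 were the only members called between the tumours on this scale, where 40.6% of all genes were called lower and 2.26% higher and the median of all genes was -0.44. All are light-strand tRNAs, 4 of the 8 tested. A feature seen only after the values were known is the place of their genes, MT:3772-5326, far along the light-strand precursor. The light-strand genes near its promoter did not pass, with -0.04 for mt-Tp, -0.08 for mt-Te and -0.24 for mt-Nd6. Strand counting is not given, so reads at all these genes cannot be told apart from those of precursors of the opposite strand. A link with distance from the promoter was not tested. As a percent of the mRNA sum, mt-Nd6 still lay lower without overlap. Of the other 2 light-strand tRNAs, mt-Ta, which lies in the same stretch (MT:5018-5086), differed by 0.31 (SE 0.84) and mt-Ts1 by -0.48 (SE 0.49) on few reads. Heavy-strand transcripts were not all nearer to 0, and a difference between the strands was not tested: mt-Th differed by -0.73 (95% interval -1.44 to -0.01, limma adjusted p = 0.086), further than mt-Ty, and mt-Ts2 by -0.52 (-1.02 to -0.03, limma adjusted p = 0.0757). mt-Rnr2 differed by -0.50 (-0.95 to -0.05, limma adjusted p = 0.0662), and mt-Tw, which neighbours the called tRNAs, by -0.31 (SE 0.26, limma adjusted p = 0.333).

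**Figure D4:**
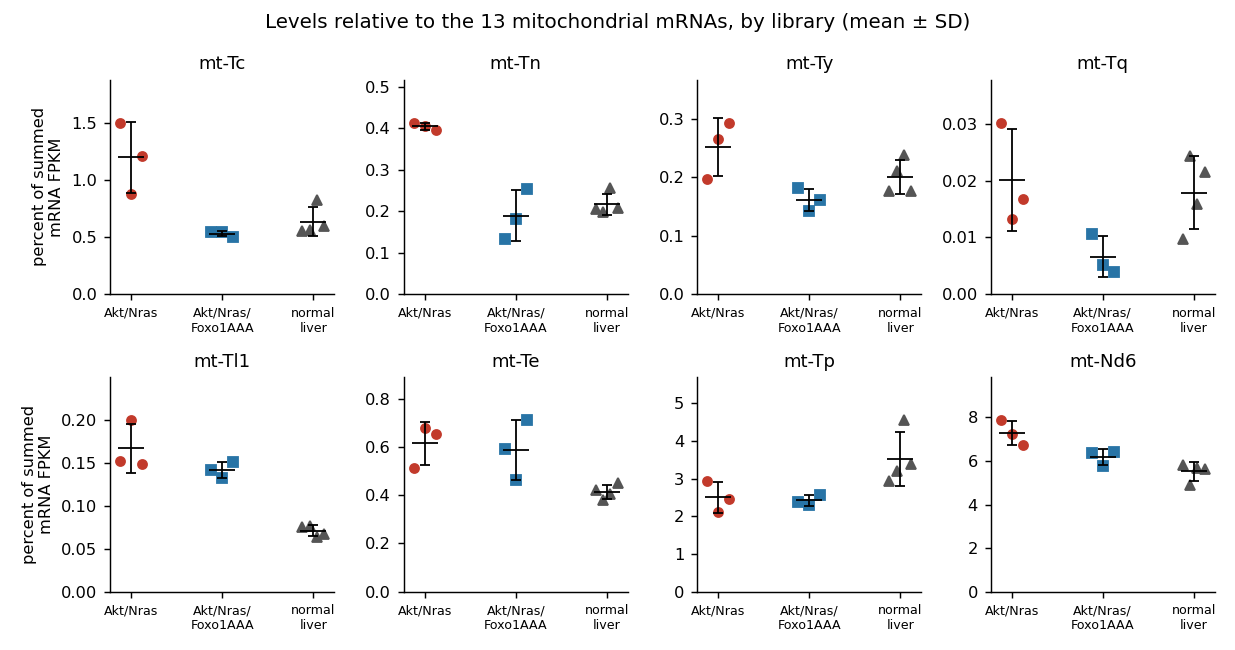
Levels of 7 tRNAs and mt-Nd6 as a percent of the summed FPKM of the 13 mitochondrial mRNAs, for each library (points), with the mean and SD of each group (bars; n = 3, 3 and 4). mt-Tc and mt-Tn are highest in the Akt/Nras tumours, and mt-Tl1 is higher in both tumour kinds than in normal liver.

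Ratios within the genome were also compared for whole classes. mt-Nd6 over the 12 heavy-strand mRNAs was 0.0854, 0.0781 and 0.0722 in Akt/Nras tumours, 0.0679, 0.0611 and 0.0687 in Akt/Nras/Foxo1AAA tumours, and 0.0619, 0.0516, 0.0605 and 0.0598 in normal livers. All Akt/Nras tumours were above all normal livers, a mean log2 difference of 0.43 with the smallest exact permutation p of 0.0571 (0.171 adjusted over 9 ratio tests), and above all Akt/Nras/Foxo1AAA tumours, which differed from them by -0.25 with the smallest exact permutation p of 0.1 (0.206 adjusted). The summed rRNAs over the summed mRNAs gave 0.0266, 0.0424 and 0.0377 in Akt/Nras tumours, 0.0212, 0.0281 and 0.0290 in Akt/Nras/Foxo1AAA tumours, and 0.0302, 0.0316, 0.0388 and 0.0330 in normal livers. The Akt/Nras/Foxo1AAA tumours were all below the normal livers (log2 difference -0.36, exact permutation p = 0.0571, 0.171 adjusted), while the Akt/Nras tumours lay on both sides of them (0.07, exact permutation p = 0.743). mt-Rnr2 over mt-Rnr1 differed from normal liver by 0.14 in Akt/Nras tumours (exact permutation p = 0.0571, 0.171 adjusted) and by 0.02 in Akt/Nras/Foxo1AAA tumours (exact permutation p = 0.8). None of the 9 ratio tests passed after adjustment.

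The nuclear genes that read and process the mitochondrial genome also fell as deposited, but by less than its transcripts. Of all 12439 tested genes, 37.9% were called lower as deposited in Akt/Nras and 36.5% in Akt/Nras/Foxo1AAA tumours. At equal totals 8609 of the 12439 were called higher and 1713 lower in Akt/Nras tumours. In Akt/Nras/Foxo1AAA tumours 7584 were then higher and 1681 lower. In a list of transcription factors and regulators, 9 of 9 tested genes were called lower in each tumour kind (medians -0.80 in Akt/Nras and -0.70 in Akt/Nras/Foxo1AAA tumours), and at equal totals 1 higher and 1 lower in Akt/Nras and 1 higher and 3 lower in Akt/Nras/Foxo1AAA tumours. Tfam, which coats and bends the genome and opens its promoters, had 7.15, 6.87 and 7.54 FPKM in Akt/Nras tumours, 6.88, 7.01 and 7.46 FPKM in Akt/Nras/Foxo1AAA tumours, and 14.8, 13.5, 15.0 and 13.3 FPKM in normal livers, with changes of -0.89 (limma adjusted p = 1.55e-06) and -0.90 (limma adjusted p = 2.36e-06). Both tumour kinds held about the same level, well under normal liver. At equal FPKM totals the change was -0.00 in Akt/Nras tumours (limma adjusted p = 0.99) and -0.24 in Akt/Nras/Foxo1AAA tumours (limma adjusted p = 0.024). Polrmt, the polymerase, had 5.98, 6.24 and 5.77 FPKM in Akt/Nras tumours, 6.83, 6.52 and 5.95 FPKM in Akt/Nras/Foxo1AAA tumours, and 8.53, 7.64, 6.91 and 7.97 FPKM in normal livers. Its changes of -0.32 (limma adjusted p = 0.00515) and -0.24 (limma adjusted p = 0.0278) turned to 0.53 and 0.39 at equal totals, and the change in Akt/Nras/Foxo1AAA tumours lost its call without either of 2 of those tumours or 2 of the normal livers (limma adjusted p of up to 0.104, without Akt/Nras/Foxo1AAA replicate 3). Tfb2m, the partner that melts the promoter, changed by -0.89 and -0.98, Tfb1m, an rRNA methyltransferase, by -0.90 and -0.67, and Mrpl12, a ribosomal protein that binds POLRMT, by -1.18 and -0.93 in Akt/Nras and Akt/Nras/Foxo1AAA tumours.

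Of 29 tested genes of RNA processing, stability and decay, 21 were called lower and 1 higher in each tumour kind (medians -0.49 and -0.44). Of all tested genes 37.9% and 36.5% were called lower. Lrpprc, which stabilises mitochondrial mRNAs, had 9.47, 10.8 and 9.74 FPKM in Akt/Nras tumours, 10.5, 10.01 and 11.4 FPKM in Akt/Nras/Foxo1AAA tumours, and 23.8, 22.3, 23.6 and 22.1 FPKM in normal livers. Its changes of -1.12 and -1.04 were among the lowest of the list with those of Hsd17b10, a subunit of the RNase that cuts the tRNA 5′ ends (-1.38 and -1.16), and Fastkd1 (-1.36 and -1.28). The gene that rose was Pde12, a phosphodiesterase that removes poly(A) tails in mitochondria (0.52, limma adjusted p = 0.000484, and 0.35, limma adjusted p = 0.0063). At equal totals this list split to 15 higher and 2 lower in Akt/Nras and 9 higher and 5 lower in Akt/Nras/Foxo1AAA tumours. Of 16 tested mitochondrial tRNA synthetases, 12 were called lower in Akt/Nras and 13 in Akt/Nras/Foxo1AAA tumours and 0 higher by limma, by an unadjusted p under 0.05 or by voom, with Nars2, the asparagine enzyme, at -1.04 and -1.03, Fars2, the phenylalanine enzyme, at -0.88 and -0.73 and Lars2, the leucine enzyme, at -0.62 and -0.81. At equal totals 6 were called higher and 1 lower in Akt/Nras tumours, and 4 higher and 1 lower in Akt/Nras/Foxo1AAA tumours. The equal-totals counts of these lists stand against 8609 and 7584 of all 12439 genes called higher, and 1713 and 1681 lower. Between the tumours none of these 3 lists had a call by limma, with 8 genes higher and 0 lower at an unadjusted p under 0.05 and 3 higher and 0 lower by voom.

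Among 16 tested genes of mitochondrial DNA replication and nucleotide supply, 12 were called lower in Akt/Nras tumours, and 11 lower and 1 higher in Akt/Nras/Foxo1AAA tumours. At equal totals 6 were called higher and 4 lower in each kind. Of all 12439 genes, 37.9% and 36.5% were called lower as deposited. At equal totals 8609 and 7584 of them were higher, and 1713 and 1681 lower. Tymp, the thymidine phosphorylase, changed most, by -2.35 and -1.50, and was higher in Akt/Nras/Foxo1AAA than in Akt/Nras tumours by 0.84 (limma adjusted p = 0.00204). Polg2, the accessory subunit of the DNA polymerase, changed by -1.47 and -1.49. Slc25a33, a pyrimidine nucleotide carrier, was higher in Akt/Nras/Foxo1AAA tumours than in normal liver by 0.34 (limma adjusted p = 0.0375) and than in Akt/Nras tumours by 0.52 (limma adjusted p = 0.0343). Neither call of Slc25a33 held without Akt/Nras/Foxo1AAA replicate 2 (limma adjusted p = 0.0992 and 0.0999) or 3 (0.158 and 0.0708). Of 15 regulators of mitochondrial biogenesis, 9 were called lower in each kind, and 3 and 2 higher. At equal totals 8 were called higher and 3 lower in Akt/Nras tumours, and 6 higher and 5 lower in Akt/Nras/Foxo1AAA tumours. Ppargc1a, the coactivator that drives biogenesis, had 1.33, 1.21 and 0.854 FPKM in Akt/Nras tumours, 1.02, 0.815 and 0.743 FPKM in Akt/Nras/Foxo1AAA tumours, and 1.92, 2.91, 2.35 and 2.36 FPKM in normal livers, with changes of -0.67 (limma adjusted p = 0.000644) and -0.86 (limma adjusted p = 0.000136). Sirt3, the mitochondrial deacetylase, fell to 2.03 ± 0.236 FPKM in Akt/Nras tumours (SD, n = 3) and 3.36 ± 0.703 FPKM in Akt/Nras/Foxo1AAA tumours (SD, n = 3), against 17.1 ± 1.43 FPKM in normal liver (SD, n = 4), and Ppara, the fatty acid receptor of hepatocytes, changed by -2.21 and -1.68. The 3 that rose in Akt/Nras tumours were Nrf1 (0.41), Gabpb1 (0.34) and Tfe3 (0.33), and the 2 in Akt/Nras/Foxo1AAA tumours were Tfe3 (0.40) and Gabpb1 (0.32). Between the tumours Sirt3 was higher by 0.52 (limma adjusted p = 0.0236) and Sirt1 lower (-0.38, limma adjusted p = 0.0419) for Akt/Nras/Foxo1AAA tumours, calls that did not hold without Akt/Nras/Foxo1AAA replicate 1 (limma adjusted p = 0.0774 and 0.108) among others. The calls of Gabpb1 were lost without Akt/Nras replicate 2 (limma adjusted p = 0.0552) and without Akt/Nras/Foxo1AAA replicate 3 (0.0759), each in its own comparison.

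The nuclear subunits of the respiratory chain fell as deposited together with the mitochondrial ones, in 76 of 77 tested genes in each tumour kind, and by less: their median was -1.24 in Akt/Nras and -1.10 in Akt/Nras/Foxo1AAA tumours, against -1.95 and -1.51 for the 7 well-measured mitochondrial mRNAs. Of all tested genes 37.9% and 36.5% were called lower. Complex II, which has no mitochondrial subunit, had 4 of 4 genes lower (medians -1.42 and -1.27), led by Sdhb (-1.89 and -1.55) and Sdha (-1.49 and -1.36). Of complex I, 37 of 37 nuclear genes were lower, led by Ndufb9 (-1.90 and -1.68) and Ndufa12 (-1.83 and -2.10). Of complex III, 9 of 9 were lower, with Uqcr11 at -1.61 and -1.23, Uqcrq at -1.49 and -1.30 and Uqcrb at -1.44 and -1.32. Of complex IV, 11 of 12 were lower, with Cox6c at -1.66 and -1.52 and Cox7c at -1.58 and -1.51, and the exception was Cox7a2l, which serves in joining complexes and lay at -0.00 and -0.14. Of the ATP synthase, 15 of 15 were lower, with Atp5k at -1.48 and -1.35, Atp5j at -1.44 and -1.20 and Atp5g3 at -1.38 and -1.32. At equal totals 46 of the 77 were called lower and 3 higher in Akt/Nras tumours, with a median of -0.28, and 56 lower and 2 higher in Akt/Nras/Foxo1AAA tumours, with a median of -0.40. Of all 12439 tested genes 1713 and 1681 were then called lower, and 8609 and 7584 higher. The well-measured mitochondrial mRNAs then had medians of -0.98 and -0.79. Between the tumours 2 nuclear subunits were called, Ndufb10 (0.32, limma adjusted p = 0.0378) and Uqcr11 (0.39, limma adjusted p = 0.0336), both higher in Akt/Nras/Foxo1AAA tumours, and both lost without Akt/Nras/Foxo1AAA replicate 2 (limma adjusted p = 0.117 and 0.112) or other single libraries. In that comparison 7.93% of all tested genes were called higher.

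**Figure D5:**
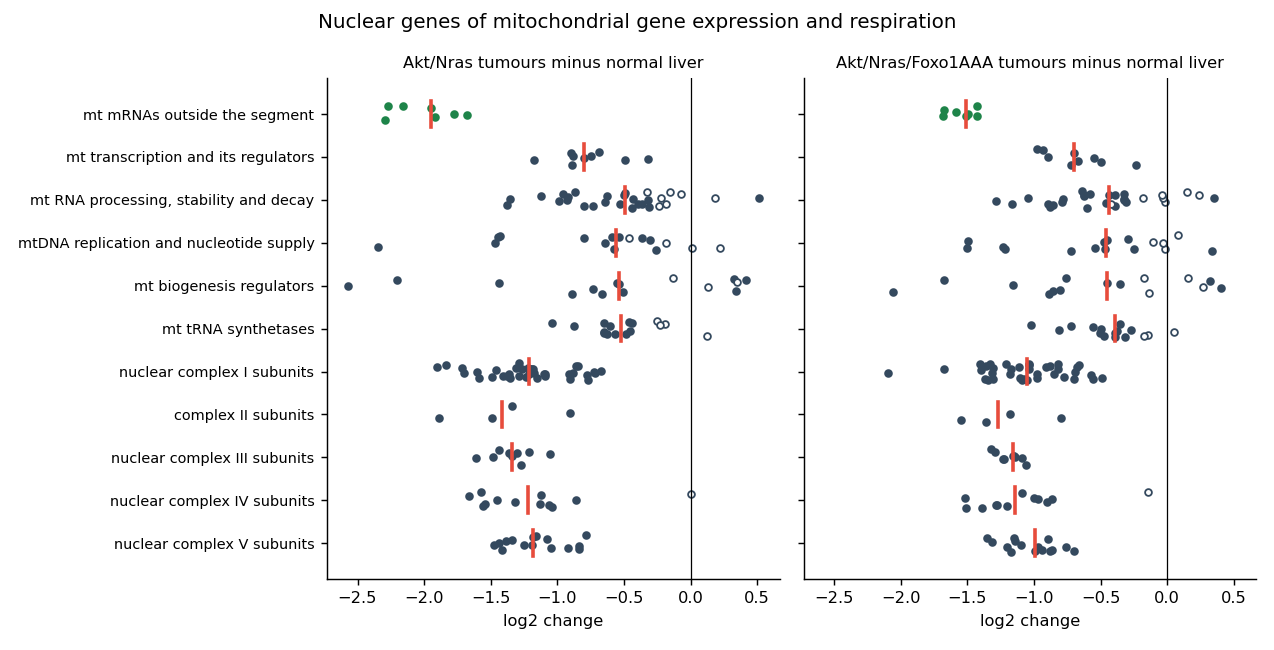
Log2 change of each tested gene (points) of the 7 mitochondrial (mt) mRNAs at least partly outside the segment and of 10 lists of nuclear genes, in Akt/Nras (left) and Akt/Nras/Foxo1AAA tumours (right) against normal liver, as deposited. Filled points were called and bars mark medians, which lie at -1.95 and -1.51 for the mitochondrial mRNAs and nearer to 0 for each nuclear list.

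Markers of cell types moved with these changes, and their part in them was not tested. All 8 hepatocyte markers were called lower in both tumour kinds as deposited, where 37.9% and 36.5% of all genes were. Their medians were -2.19 in Akt/Nras and -1.43 in Akt/Nras/Foxo1AAA tumours. At equal totals 5 were called lower and 0 higher in Akt/Nras tumours (median -1.22). In Akt/Nras/Foxo1AAA tumours 5 were then lower and 1 higher (median -0.71). The extent as deposited varied: albumin (Alb) changed by -0.97 and -0.65 and Serpina1c, a hepatocyte protease inhibitor, by -5.64 and -4.14. The 6 cholangiocyte markers summed to 4219 to 5905 FPKM in Akt/Nras tumours, 2769 to 5511 FPKM in Akt/Nras/Foxo1AAA tumours and 16.3 to 24.2 FPKM in normal livers, mostly from Spp1, and 5 of 5 tested were called higher in Akt/Nras and 4 of 5 in Akt/Nras/Foxo1AAA tumours. The 6 stellate and fibroblast markers summed to 114 to 120 FPKM, 72.7 to 97.3 FPKM and 31.5 to 39.3 FPKM in Akt/Nras tumours, Akt/Nras/Foxo1AAA tumours and normal livers. The 6 macrophage markers summed to 131 to 249 FPKM, 214 to 239 FPKM and 110 to 163 FPKM. Endothelial markers summed to 29.5 to 41.6 FPKM, 32.0 to 39.6 FPKM and 27.4 to 35.5 FPKM, lymphocyte markers to 1.40 to 2.52 FPKM, 1.71 to 2.45 FPKM and 1.46 to 2.85 FPKM, and erythroid markers to 1009 to 2522 FPKM, 2045 to 3687 FPKM and 1001 to 1786 FPKM, in the same order of groups. As deposited, these sums hide mixed directions. In Akt/Nras tumours 3 stellate and fibroblast markers were called higher and 2 lower, 4 macrophage markers higher and 2 lower, and 3 endothelial markers higher and 1 lower. For Akt/Nras/Foxo1AAA tumours the counts were 2 and 2, 4 and 0, and 3 and 0. Erythroid markers had 0 higher and 1 lower, then 3 and 0. At equal totals 5 stellate and fibroblast, 4 macrophage, 5 endothelial and 3 erythroid markers were called higher in Akt/Nras tumours and 0 lower. In Akt/Nras/Foxo1AAA tumours 4, 5, 5 and 4 were then higher and 0 lower. Of all 12439 genes, 8609 and 7584 were called higher on that scale, and 1713 and 1681 lower. No marker was at 0 in all libraries.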

How the data were processed

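Per the file headers, the deposited FPKM values stand in 1 column per library, with no replicates pooled. The submitters' processing notes name FastQC 0.11.7 and GRCm38; aligner, counter, annotation and strand counting are not given in those sources. Multiplying by gene length turned 100% of non-zero FPKM into read numbers whole to within 0.02. Values entered limma 3.58.1 (R 4.3.3) as log2(FPKM + 1), with all 10 libraries in 1 fit, a mean per group and a variance trend, and adjusted p-values over the 12439 genes with at least 1 FPKM in at least 3 libraries. The code was tested on simulated data. Shares and ratios were compared by exact permutation tests (scipy 1.17.1). MT coordinates of the 37 members equal those of GENCODE M21 on GRCm38. Intervals cover the spread in the fit. Named genes are all members with at least 1 FPKM in 3 libraries, up to 2 called genes in each direction per list, the pseudogenes, and Polrmt, Tfam, Lrpprc and Ppargc1a. Alb, Spp1 and Cox7a2l were named after their values were seen. The members and lists were chosen with earlier results of these data known. Alternatives were other scalings, filters and pseudocounts, weights, a replicate block and leaving out each library. Replicate numbers did not pair the samples: same-numbered libraries of 2 groups correlated by -0.17 to 0.11.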

Additional observations from a re-analysis of the deposited data

Results flagged for a closer look

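Among 55 sets of normal liver values (transcripts, their shares and ratios, pseudogenes and the always named nuclear genes), 2 held a library whose gap to its nearest neighbour, divided by the range of the 4 libraries, exceeded Dixon's 95% critical value, which chance does in about 1 of 20 sets. mt-Atp8 stood at 99.2 FPKM in normal liver replicate 1, against 4.45 to 16.4 FPKM in the other 3. mt-Nd4 stood at 7990 FPKM in normal liver replicate 2, against 5646 to 5952 FPKM in the other 3.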

How the results depend on the processing

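Groups of 3 and 4 libraries and few reads limit the tRNAs and the mRNAs inside the copied segment. Of the alternative values, 3879 kept direction and side of the threshold, 112 lost and 61 gained a call, and 13 turned direction; the causes were not tested. The planned edgeR and DESeq2 fits were not run, since the values are FPKM. Voom and median-of-ratios scaling, the sum without mt-Co1 and 3 other variants were chosen after seeing the data. Called higher and lower over all genes, in Akt/Nras tumours against normal liver, were 3871 and 4716 as deposited, 8609 and 1713 at equal totals, 8227 and 1910 at equal nuclear totals, 7489 and 2195 at totals without the 50 most abundant genes, and 7318 and 2314 at equal reads. For Akt/Nras/Foxo1AAA tumours they were 3330 and 4544, then 7584 and 1681, 7062 and 1838, 6845 and 1916, and 5949 and 2268. A minimum of 5 FPKM left 1969 and 1783 called higher. Between the tumours 986 were higher and 514 lower. Higher calls became 595 with no filter, 656 at equal totals, 1989 with array weights and 5 from only the 2 groups compared. Lower calls became 305 with a pseudocount of 0.1, 328 with no filter, 3234 at equal totals, 2962 at equal nuclear totals, 1239 without the 50 genes, 2400 at equal reads, 1679 with array weights and 5 from the 2 groups. The replicate block gave 332 and 136 there, and 28 and 26 members lower against normal liver, and called mt-Rnr2 lower between the tumours relative to the mRNA sum (-0.50, limma adjusted p = 0.0332); the numbers did not pair the samples. Members called higher between the tumours, 0 as deposited, were 3 at 5 FPKM, 9 with array weights, 1 with median-of-ratios scaling and 3 by voom. Members called lower, 0 as deposited, were 3 at equal totals, 3 at equal nuclear totals, 1 without the 50 genes, 2 at equal reads and 1 with array weights. Relative to the mRNA sum without mt-Co1, 5 members were lower in Akt/Nras tumours in place of 3. mt-Tl1 turned to 0.11 and 0.0149 in Akt/Nras tumours at equal totals and equal nuclear totals. In Akt/Nras/Foxo1AAA tumours it turned to 0.13, 0.0429 and 0.00746 at these and without the 50 genes. Polrmt turned to 0.53, 0.44, 0.30 and 0.25 in Akt/Nras and 0.39, 0.32, 0.29 and 0.17 in Akt/Nras/Foxo1AAA tumours at equal totals, equal nuclear totals, without the 50 genes and at equal reads. Leaving out 1 library gave 3596 to 3879 higher and 4411 to 4716 lower in Akt/Nras tumours, 3018 to 3450 and 4120 to 4650 for Akt/Nras/Foxo1AAA against normal liver, and between the tumours 402 (without Akt/Nras/Foxo1AAA replicate 1) to 1247 higher and 148 to 706 lower, where leaving out Akt/Nras replicate 1 (612 and 289), Akt/Nras/Foxo1AAA replicate 2 (451 and 181), Akt/Nras replicate 3 (291 lower) or normal liver replicate 4 (333 lower) also moved a count by over 1.5 times. It gave 27 to 29 and 26 to 27 members lower, and 0 to 2 higher (2 without normal liver replicate 2) and 0 to 1 lower (1 without Akt/Nras replicate 2 or Akt/Nras/Foxo1AAA replicate 3) between the tumours. Relative to the mRNA sum it gave 4 to 7 higher and 2 to 5 lower (5 without Akt/Nras replicate 2), 1 to 3 higher (1 without Akt/Nras/Foxo1AAA replicate 3, normal liver replicate 1 or 3) and 5 to 8 lower, and 0 higher and 3 to 5 lower between the tumours. Differences of the share ran from -4.46 to -3.68, -3.88 to -3.10 and 0.33 to 0.85 points. rRNA over mRNA ran from -0.0699 (without Akt/Nras replicate 2, turned) to 0.27, -0.45 to -0.22 and -0.63 to -0.29; mt-Nd6 over heavy-strand mRNAs from 0.37 to 0.49, 0.12 to 0.23 and -0.31 to -0.19; mt-Rnr2 over mt-Rnr1 from 0.12 to 0.17, -0.0520 (without Akt/Nras/Foxo1AAA replicate 3, turned) to 0.10 and -0.20 to -0.05.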
